A study of Mus musculus with 2 samples.

Results

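The set described here holds 10 genes that regulate oxidative metabolism: the co-regulators Ppargc1a, Ppargc1b and Nrip1, the estrogen-related receptors Esrra, Esrrb and Esrrg, the peroxisome proliferator-activated receptors Ppara and Ppard, the retinoid X receptor Rxra, and the mitochondrial DNA factor Tfam. They were chosen by gene symbol, and all 10 had reads in both libraries, out of 14675 genes with a read in at least 1 library. Reads were summed per gene in each of 2 long-read RNA libraries, called replicate 2 and replicate 1. Both were made with 2 µg of RNA from gastrocnemius, the large calf muscle, of male B6CASTF1/J mice (hybrids of C57BL/6J and CAST/EiJ) aged 2 months. No genotype, treatment or agent is labelled, so the libraries form 1 group. Both carry one donor identifier although the males are numbered differently, so the libraries may or may not come from separate animals, and no p-value was computed. Ratios are replicate 2 over replicate 1, and they compare those libraries, with no replicate check.

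PGC-1α and PGC-1β, the products of Ppargc1a and Ppargc1b, do not bind DNA themselves. They are recruited by nuclear receptors, among them the ERRs and the heterodimers of a PPAR with RXR, to genes of fatty acid oxidation, the respiratory chain and mitochondrial biogenesis. RIP140, the product of Nrip1, is a co-repressor that acts on many of the same receptors, and TFAM, encoded in the nucleus, packages and helps transcribe mitochondrial DNA. In skeletal muscle this network is known for its activity in slow, oxidative fibres and for its response to exercise.

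Replicate 2 had 1402875 reads of annotated genes and replicate 1 had 1107128, and levels are counts per 1000000 of these reads (CPM). A single read was worth 0.713 CPM in replicate 2 and 0.903 CPM in replicate 1. For a gene without reads, the 3 counts that a count of 0 allows equal 2.14 CPM in replicate 2, against 2.71 CPM in replicate 1. Each read was taken as 1 molecule, so CPM needs no division by transcript length, although long molecules are more often truncated or missed. Whether repeated copies of a molecule were removed is not given in the sources used here. The label of muscle was checked on the sarcomere gene Actn2, which had 2596 CPM in replicate 2 and 1228 CPM in replicate 1. Of 8 adipocyte markers, Adipoq, Plin1 and Lep had 0 reads in both libraries, and Fabp4, which other cell types also express, had 103 reads in replicate 2 and 50 in replicate 1. In bulk tissue, fewer cells of a type and less RNA per cell cannot be told apart.

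The 10 genes together had 969 reads in replicate 2 and 353 in replicate 1, or 691 and 319 CPM (505 ± 263, SD, n = 2). Esrra alone gave 669 of these reads in replicate 2 and 202 in replicate 1. Most Esrra reads came from single-exon models, which hold no splice junction and so show neither promoter nor splice form. Counting only reads of models with 2 or more exons, the sums were 279 reads in replicate 2 and 141 in replicate 1, or 199 and 127 CPM. These spliced reads made up 28.8% of the genes' reads in replicate 2 and 39.9% in replicate 1, against 93.9% and 94.4% of the reads of all annotated genes. Mean levels by spliced reads are therefore given below for each gene, and ratios both ways for Ppargc1a, Ppargc1b, Esrra, Esrrg and Ppara.

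**Figure D1:**
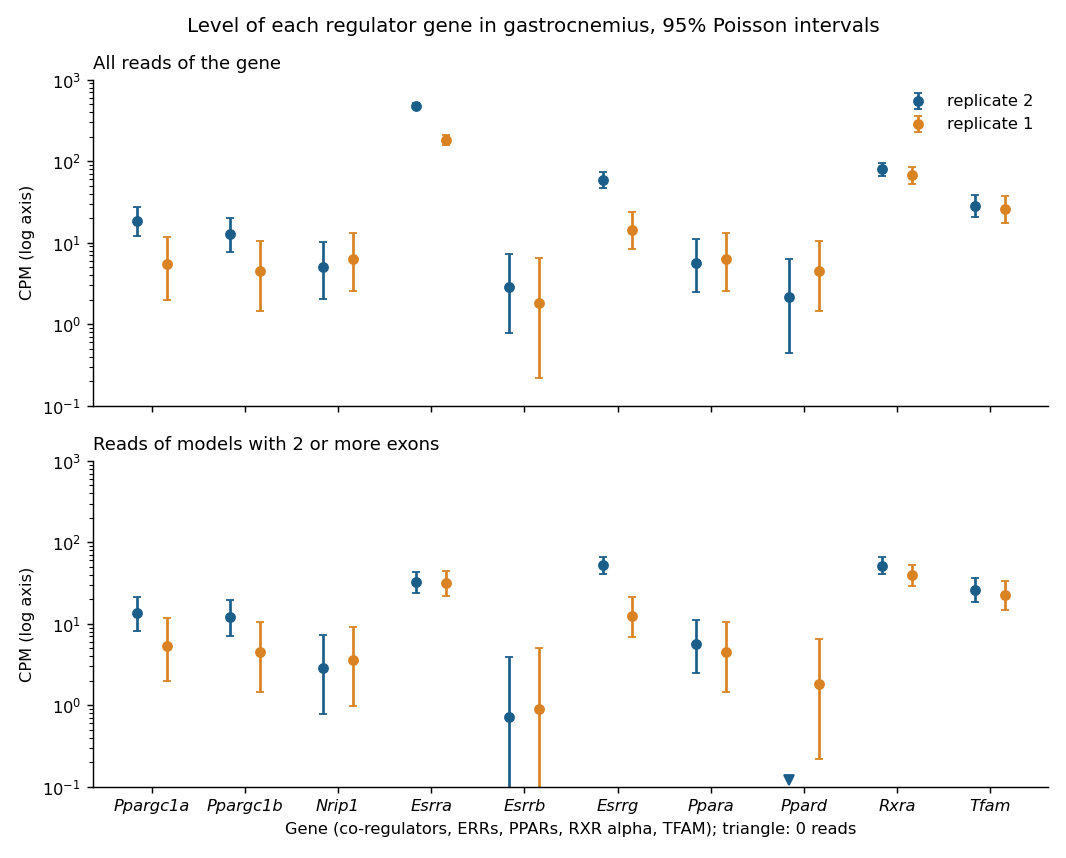
CPM of each gene on a log axis, from all reads (top) and from reads of models with 2 or more exons (bottom), in replicate 2 (left of each pair) and replicate 1 (right), with 95% exact Poisson intervals that cover counting error only. Esrra stands at 477 and 182 CPM in the top panel and at 32.8 and 31.6 CPM in the bottom one, while Esrrg keeps its distance between the libraries in both.

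By spliced reads, Rxra had the highest mean level of the 10 genes, at 45.9 ± 8.69 CPM (SD, n = 2), followed by Esrrg at 32.7 ± 28.4, Esrra at 32.2 ± 0.832 and Tfam at 24.5 ± 2.68 CPM. The co-activators came lower, Ppargc1a at 9.48 ± 5.74 CPM and Ppargc1b at 8.32 ± 5.38 CPM. Ppara stood at 5.11 ± 0.839 CPM, Nrip1 at 3.23 ± 0.539, Ppard at 0.903 ± 1.28 and Esrrb at 0.808 ± 0.135 CPM. In this order the values of the libraries overlapped between Rxra and Esrrg, Esrrg and Esrra, Ppargc1a and Ppargc1b, Ppargc1b and Ppara, and Ppard and Esrrb. For no neighbouring pair were the Poisson intervals apart in both libraries, so the order of neighbours is not resolved at this depth.

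Among genes with at least 20 reads summed over the libraries, 4 of the 6 that qualified here were over 2-fold higher in replicate 2: Ppargc1a, Ppargc1b, Esrra and Esrrg. Over all annotated genes with that minimum the share was 6.75% (459 of 6796). None of the 6 was over 2-fold lower, against 1.66% of all genes. Ppargc1a and Ppargc1b, with 26 and 18 reads in replicate 2 but 6 and 5 in replicate 1, reached the minimum only through the library in which they were higher, so their place in this count is partly set by it. By spliced reads 3 of 6 were over 2-fold higher, without Esrra, against 6.6% of 6147 genes, and 0 were lower, against 1.45%. With at least 50 summed reads, 2 of 4 were over 2-fold higher by all reads, Esrra and Esrrg, against 4.01% of 4294 genes, and 0 lower, against 0.536%. By spliced reads with that minimum it was 1 of 4, Esrrg, against 4.12% of 3911 genes, and 0 lower, against 0.435%. Esrrg had 83 reads in replicate 2 and 16 in replicate 1, or 74 and 14 by spliced reads. It thus reached the minimum of 50 only through replicate 2, where it was higher, so its place in these counts is partly set by that library too.

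**Figure D2:**
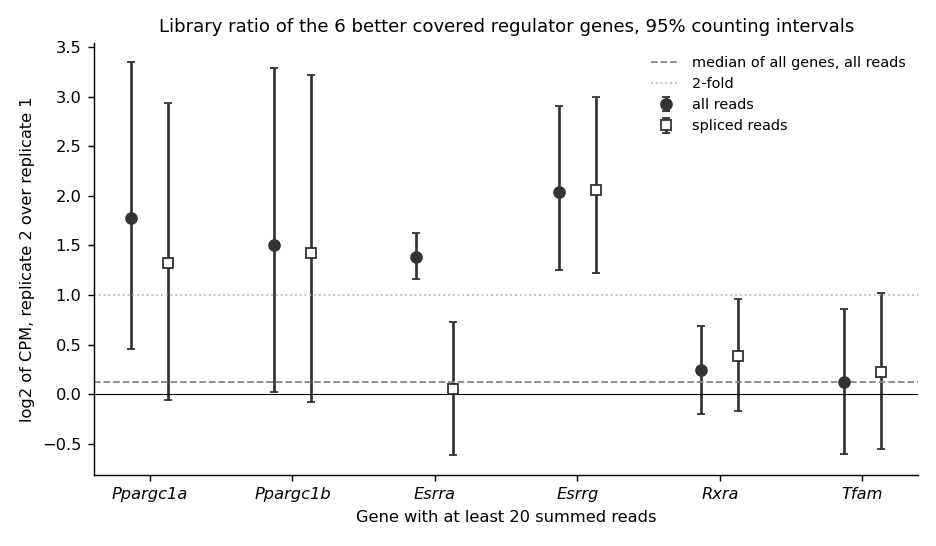
Log2 ratio of CPM, replicate 2 over replicate 1, of the 6 genes with at least 20 summed reads, by all reads (filled circles) and spliced reads (open squares), with 95% exact conditional intervals for counting error. The dashed line is the median of all genes (0.12) and the dotted line marks 2-fold; Esrra is the gene whose ratio drops below 2-fold when single-exon reads are left out, and the interval of Esrrg lies above 2-fold both ways.

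Ppargc1a, which encodes PGC-1α, had 26 reads in replicate 2 and 6 in replicate 1, or 18.5 CPM and 5.42 CPM. The ratio was 3.42, with a 95% interval of 1.38 to 10.2. Replicate 2 also held 7 single-exon reads of the gene and replicate 1 held 0, and by spliced reads the counts were 19 in replicate 2 and 6 in replicate 1, with a ratio of 2.50 (0.960 to 7.65). With single-exon reads left out, the interval thus reaches below 1.

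Ppargc1a is transcribed on the minus strand of chromosome 5, and its transcripts differ in their first exon, which carries the start codon. Of the reads that held a first exon, 13 of 18 in replicate 2 and 3 of 5 in replicate 1 began with exon 1a (mm10, 51553735 to 51553922, the first exon of Ppargc1a-203). The other 5 of 18 in replicate 2 and 2 of 5 in replicate 1 began with the distal exon 1b, whose start lies 13804 nt upstream. The shares of exon 1a were 72.2% (49.1 to 87.5%) in replicate 2 and 60.0% (23.1 to 88.2%) in replicate 1, with Wilson 95% intervals that overlap widely. The exon 1b form has in other work been tied to exercise and adrenergic stimulation, and here it was read in both libraries, whose labels name no stimulation. The 2 forms differ in the beginning of their reading frame, shown here as annotated by GENCODE M21 and cut from its transcripts, with the coding bases of the first exon in capitals and the first bases of the shared exon 2 in lower case.
Ppargc1a exon 1a: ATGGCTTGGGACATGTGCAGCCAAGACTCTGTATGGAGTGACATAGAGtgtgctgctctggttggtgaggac
Ppargc1a exon 1b: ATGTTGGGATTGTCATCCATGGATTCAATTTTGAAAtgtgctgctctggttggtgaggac
In these annotated forms the first exon thus gives 16 codons from exon 1a and 12 from exon 1b before the shared sequence begins.

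Reads from exon 1b used more than 1 donor site. The annotated donor at base 51567630 was used by 3 reads in replicate 2 and 1 in replicate 1, and an unannotated donor at base 51567580, which lengthens the exon by 50 nt, by 2 reads in replicate 2 and 1 in replicate 1. The added 50 nt are not a multiple of 3, so the frame shown above for exon 1b holds only with the annotated donor. The region before the exon 1b start is shown because reads of both libraries begin at it (RefSeq, GRCm38.p6, minus strand, chr5:51567676-51567975, start site at 51567725).
Ppargc1a exon 1b promoter: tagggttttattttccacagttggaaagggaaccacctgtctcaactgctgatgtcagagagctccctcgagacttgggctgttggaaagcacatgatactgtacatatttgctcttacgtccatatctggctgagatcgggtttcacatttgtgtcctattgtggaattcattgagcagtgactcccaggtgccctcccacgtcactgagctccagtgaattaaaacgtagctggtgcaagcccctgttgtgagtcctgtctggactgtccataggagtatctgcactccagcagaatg
Its GC content was 48.7%, against a median of 52.7% over 32817 RefSeq windows of the same length. None of the 6 motifs listed further down was found in these letters.

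The full annotated chain of Ppargc1a-203 was carried by 11 of 19 spliced reads in replicate 2 and 3 of 6 in replicate 1. The annotated longer form of exon 7, which adds 31 nt and gives the truncated NT-PGC-1α protein, was used by 0 of 18 reads with a first exon in replicate 2 and 0 of 5 in replicate 1. A count of 0 at this depth allows shares of up to 16.7% in replicate 2 and 60.0% in replicate 1. One read in each library had an intron of 2957 nt removed from within the last exon.

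**Figure D3:**
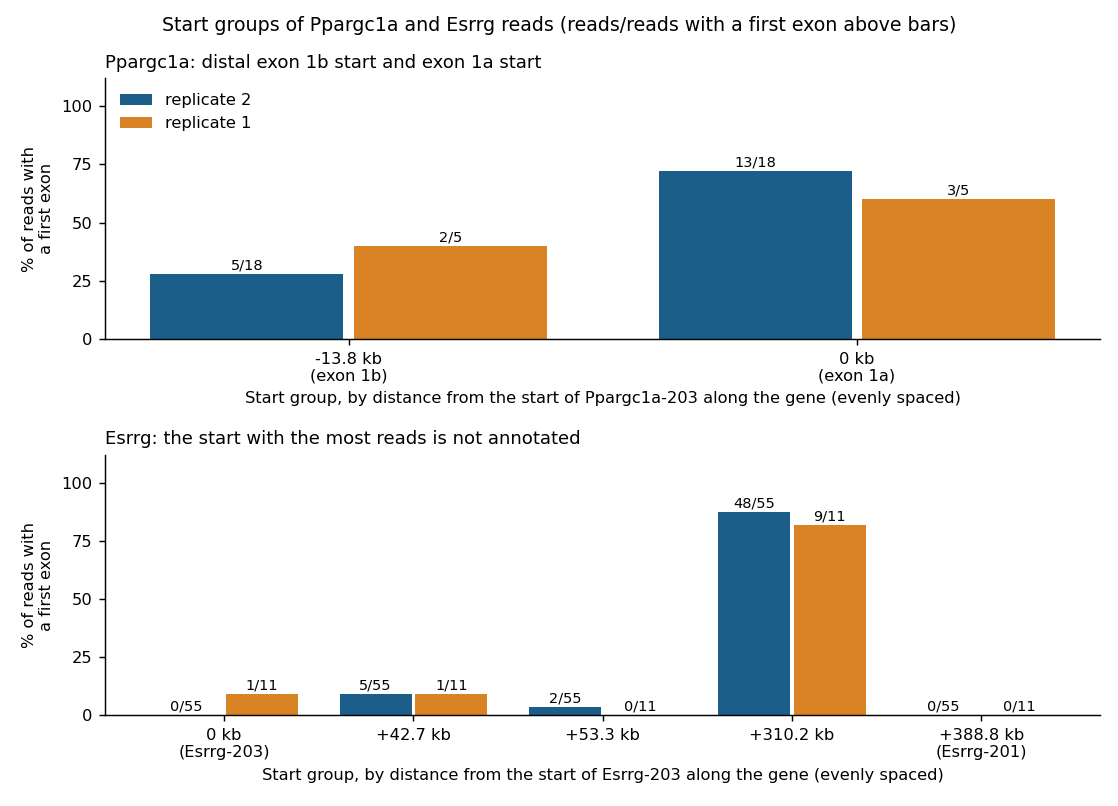
Share of the reads with a first exon in each group of starts (5′ ends within 100 nt) of Ppargc1a (top) and Esrrg (bottom), for replicate 2 (left bar) and replicate 1 (right bar), with reads and totals above the bars. Exon 1a leads for Ppargc1a with 13 of 18 and 3 of 5 reads, and the unannotated start leads for Esrrg with 48 of 55 and 9 of 11 reads.

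Ppargc1b, on chromosome 18, encodes PGC-1β and had 18 reads in replicate 2 and 5 in replicate 1, or 12.8 CPM and 4.52 CPM. The ratio was 2.84 (1.02 to 9.79) by all reads and 2.68 (0.950 to 9.30) by spliced reads. The full chain of Ppargc1b-202 was carried by 11 of 17 spliced reads in replicate 2 and 1 of 5 in replicate 1. All reads with a first exon, 13 in replicate 2 and 2 in replicate 1, began at 1 start, and 2 of the 13 in replicate 2 held an extra exon between the first 2 exons. Models that began at an internal exon held 4 of 17 spliced reads in replicate 2 and 3 of 5 in replicate 1. They began at the same base in both libraries and were not counted as holding a first exon.

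Nrip1, the co-repressor gene, had 7 reads in replicate 2 and 7 in replicate 1, or 4.99 CPM and 6.32 CPM. Its 4 spliced reads in each library all began within 100 nt of the annotated start at base 76373049 of chromosome 16 (minus strand). The annotated start at base 76373827 was used by 0 of 4 in either library. With so few reads a count of 0 allows a share of up to 75%.

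Esrra encodes ERRα, which forms an autoregulated pair with PGC-1α in muscle. By all reads it had 477 CPM (441 to 514) in replicate 2 and 182 CPM (158 to 209) in replicate 1, a ratio of 2.61 (2.23 to 3.07), at percentile 97.9 of all genes' log2 ratios. By spliced reads it had 46 reads in replicate 2 and 35 in replicate 1, or 32.8 CPM and 31.6 CPM, a ratio of 1.04 (0.654 to 1.66), at percentile 43.2. The excess of replicate 2 thus lies in single-exon models, which held 93.1% of Esrra reads in replicate 2 and 82.7% in replicate 1. Over genes with at least 20 summed reads, the median share of single-exon reads was 3.57% in both libraries.

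All single-exon Esrra reads were placed in the last exon (chromosome 19, mm10, 6910977 to 6912010, minus strand, 1034 nt). In replicate 2 a single model of 73 nt, from 6910977 to 6911049, took 623 reads and had the class genomic, meaning that it overlaps the gene without matching its junctions. These coordinates are those of the deposited model. The lengths of the reads assigned to it are not given, so the reads may not be 73 nt long or end with the overlap described below. In replicate 1 a single model of the whole last exon took 167 reads and had the class incomplete splice match, meaning part of an annotated chain. The 73-nt model spans exactly the annotated overlap of Esrra with Trmt112, a methyltransferase subunit gene on the opposite strand, whose own models had 29 reads in replicate 2 and 39 in replicate 1. Whether the libraries kept strand is not given in the sources used here, so reads of the overlap cannot be told apart by gene.

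Filters by class gave other Esrra ratios. Leaving out genomic reads removes the 73-nt model of replicate 2 but not the last-exon model of replicate 1, and left 46 reads in replicate 2 and 202 in replicate 1, a log2 ratio of -2.46. Annotated transcripts alone, without either model, gave 34 reads in replicate 2 and 31 in replicate 1, a ratio of 0.866 (0.516 to 1.46). The spliced forms were alike: Esrra-201 in full was carried by 34 of 46 spliced reads in replicate 2 and 31 of 35 in replicate 1. All reads with a first exon, 39 in replicate 2 and 34 in replicate 1, began at 1 start. Exon 2, of 337 nt with the start codon, was skipped in 2 of 39 in replicate 2 and 2 of 34 in replicate 1. The models without it had 1910 nt in replicate 2, and 1910 and 2002 nt in replicate 1, so their chains were not all the same.

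**Figure D4:**
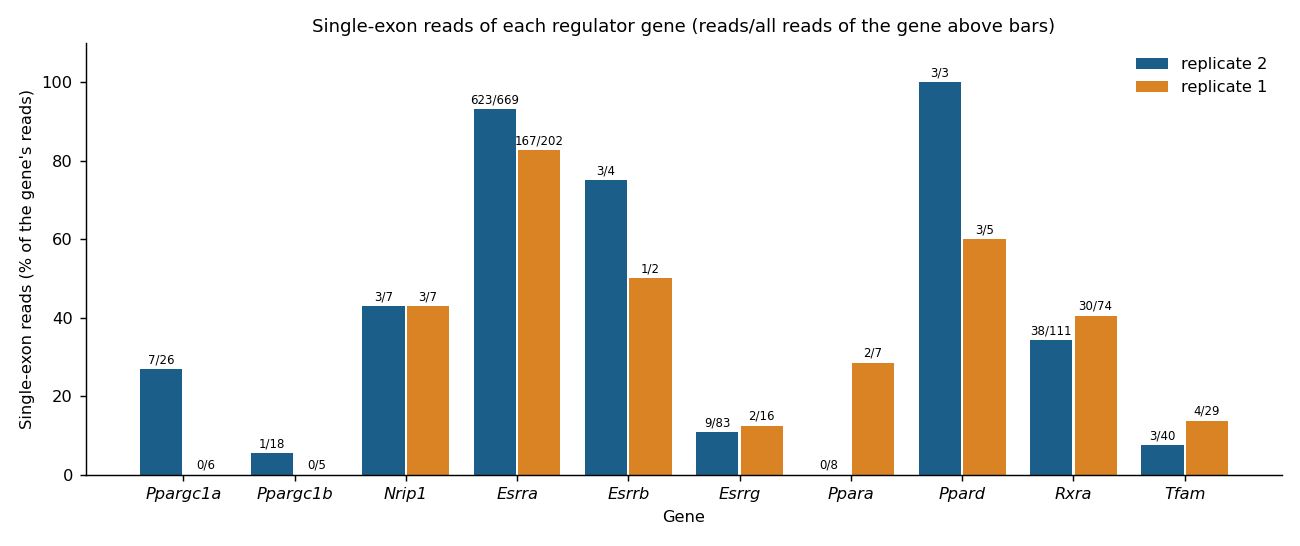
Share of each gene's reads that belong to single-exon models, in replicate 2 (left bar) and replicate 1 (right bar), with the reads and the gene's total above each bar. Esrra stands out among the well covered genes with 623 of 669 and 167 of 202 reads, followed by Rxra with 38 of 111 and 30 of 74.

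Esrrg encodes ERRγ, which is abundant in oxidative muscle and heart. It had 83 reads in replicate 2 and 16 in replicate 1, or 59.2 CPM (47.1 to 73.3) and 14.5 CPM (8.26 to 23.5), a ratio of 4.09 (2.38 to 7.49). By spliced reads it had 74 in replicate 2 and 14 in replicate 1, a ratio of 4.17 (2.34 to 8.0). Its log2 ratio stood at percentile 99.5 of all genes by all reads and 99.7 by spliced reads.

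A full annotated M21 transcript was matched by 0 of 83 Esrrg reads in replicate 2 and 0 of 16 in replicate 1. Most reads with a first exon, 48 of 55 (87.3%, 76.0 to 93.7%) in replicate 2 and 9 of 11 (81.8%, 52.3 to 94.9%) in replicate 1, began with an unannotated first exon on the plus strand of chromosome 1, from 187919269 in replicate 2 and 187919291 in replicate 1 to 187919716 in the leading form (mm10, 448 nt in replicate 2). This start lies 78558 nt upstream of that of Esrrg-201 and 310240 nt downstream of that of Esrrg-203, and the nearest of the 4 RefSeq starts is also 78558 nt away. The first exon had 4 donor sites, of which the leading one served 42 of its 48 reads in replicate 2 and 6 of 9 in replicate 1. The start of Esrrg-201 and Esrrg-202 was used by 0 of 55 reads in replicate 2 and 0 of 11 in replicate 1, which allows shares of up to 5.45% and 27.3%.

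A minor Esrrg start, near one that RefSeq lists at 187651758 and M21 does not, was used by 5 of 55 reads in replicate 2 and 1 of 11 in replicate 1. Every spliced read that began before the exon with the start codon (188043334 to 188043749) and ran past it held it, 51 of 51 in replicate 2 and 10 of 10 in replicate 1, so the unannotated start changes the part before the codon at base 188043347. Models that began at this exon itself, where a molecule cut short and another start cannot be told apart, held 15 of 74 spliced reads in replicate 2 and 3 of 14 in replicate 1. An extra exon of 241 nt (187958414 to 187958654) occurred in 3 of 48 reads from the leading start in replicate 2 and 1 of 9 in replicate 1.

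Esrrb, which encodes ERRβ, had 4 reads in replicate 2 and 2 in replicate 1, at or below 2.85 CPM. In each library 1 of these was spliced, and both spliced reads shared the same 2-exon chain from base 86361117 of chromosome 12.

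Ppara encodes PPARα, the receptor that drives fatty acid oxidation genes in liver, heart and muscle. It had 8 reads in replicate 2 and 7 in replicate 1, or 5.70 CPM and 6.32 CPM, a ratio of 0.902 (0.286 to 2.92). By spliced reads it had 8 in replicate 2 and 5 in replicate 1, a ratio of 1.26 (0.364 to 4.91). Of the spliced reads that reached exon 7, 4 of 7 in replicate 2 and 4 of 5 in replicate 1 ended in the intron behind it, 301 nt past the donor in replicate 2 and 304 nt in replicate 1. Chains through the last exon, which holds the stop codon (chromosome 15, plus strand, base 85801256), made up 3 of 7 reads in replicate 2 and 1 of 5 in replicate 1. The junction that the short forms lack is shown from the M21 transcript, with the last bases of exon 7 in capitals and the first of the last exon in lower case.
Ppara exon 7 to exon 8: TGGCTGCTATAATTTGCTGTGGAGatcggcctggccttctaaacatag
A model that ends in the intron runs on from the capitals into the 2747-nt intron, whose sequence is not shown.

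The Ppara reads also began at different places in the libraries. Models with a start at base 85735776 held 5 of 8 reads with a first exon in replicate 2 and 0 of 5 in replicate 1, and models with a start between 85735564 and 85735639 held 3 of 8 in replicate 2 and 5 of 5 in replicate 1. A single-exon model from base 85735776, with 2 reads, was also listed in replicate 1. Reads of 1 chain share 1 model and thereby 1 deposited start, so these counts are not independent observations of a start. Both places lie in the RefSeq promoter window (GRCm38.p6, plus strand, chr15:85735526-85735825, start site at 85735776), shown with its match to the motif of the nuclear respiratory factor NRF1 in capitals.
Ppara promoter: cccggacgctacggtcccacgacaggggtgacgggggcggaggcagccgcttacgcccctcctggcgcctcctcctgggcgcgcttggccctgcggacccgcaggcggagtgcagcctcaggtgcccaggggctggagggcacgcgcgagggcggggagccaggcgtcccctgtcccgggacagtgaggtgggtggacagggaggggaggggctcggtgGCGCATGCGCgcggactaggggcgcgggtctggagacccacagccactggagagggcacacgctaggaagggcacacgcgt
The match begins at position -31 from the RefSeq start site, and the window has a GC content of 74.7%. The match lies downstream of the starts between 85735564 and 85735639.

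Ppard, the gene of PPARδ, had 3 reads in replicate 2 and 5 in replicate 1, or 2.14 CPM and 4.52 CPM. None of the reads in replicate 2 was spliced. In replicate 1 there were 2 spliced reads, of which 1 matched a full annotated transcript. Rxra, the gene of the shared heterodimer partner RXRα, had 111 reads in replicate 2 and 74 in replicate 1, or 79.1 CPM and 66.8 CPM, a ratio of 1.18 (0.874 to 1.61). Nearly all reads with a first exon, 60 of 61 in replicate 2 and 34 of 34 in replicate 1, began at the start of Rxra-201 (chromosome 2, plus strand, base 27677201), and 0 in either library began at those of Rxra-202 and Rxra-203. The full chain of Rxra-201 was carried by 59 of 73 spliced reads in replicate 2 and 33 of 44 in replicate 1.

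The single-exon reads of Rxra were also split by class, the other way round. Its 38 single-exon reads in replicate 2 were 1 incomplete splice match that spans the last exon of 3417 nt, and its 30 in replicate 1 lay in 2 genomic models of 2313 and 463 nt within that exon. Their levels were 27.1 CPM in both libraries, a ratio of 1.00 (0.603 to 1.67). Without genomic reads, Rxra kept 111 reads in replicate 2 and 43 in replicate 1, a ratio of 2.04 (1.42 to 2.97), in place of 1.18 by all reads.

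Tfam had 40 reads in replicate 2 and 29 in replicate 1, or 28.5 CPM and 26.2 CPM, a ratio of 1.09 (0.658 to 1.82). Its transcripts were uniform: 36 of 37 spliced reads in replicate 2 and 24 of 25 in replicate 1 carried the full chain of Tfam-201 (chromosome 10, minus strand, start at base 71238280). The single other read with a first exon, in replicate 1, began at base 71237678. Over all 10 genes, 22 of 62 spliced chains were found in both libraries, and these held 86.7% of the spliced reads in replicate 2 and 89.4% in replicate 1. A chain with a single read cannot be found in both, and the share over all annotated genes was not computed.

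RefSeq promoter windows of 300 bases around a start site were matched for 9 of the 10 genes (15 windows) and searched on both strands for 6 motifs. These were the ERR response element TNAAGGTCA, found in 1.28% of all 32817 windows, the NRF1 motif (the capitals above, with any base at the sixth position) in 4.59%, the GABP motif CCGGAAG in 8.86%, the E-box CACGTG in 7.15%, the cAMP response element TGACGTCA in 1.79%, and the TATA box TATAAA in 13.6%. The 15 windows held 3 matches: NRF1 in Ppara, GABP in Tfam at -47 from the RefSeq start site, and a reverse TATAAA in an upstream window of Esrrg at -19. The RefSeq start of Tfam, at base 71238044, lies downstream of the start of Tfam-201 at 71238280. The GABP match thus falls within the first exon of Tfam-201 (71237840 to 71238280). No window held the ERR element in these letters, which says nothing of binding elsewhere. The start of Ppargc1a exon 1a and the leading Esrrg start, where most of their reads with a first exon began, lay in no window. The regions before those starts were therefore not searched.

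The genes around the regulators were read from lists of partners and targets, chosen with earlier results of these data known. The median log2 ratio of all genes with at least 20 summed reads was 0.12, 61.5% of them were higher in replicate 2, and the shares over 2-fold higher and lower were 6.75% and 1.66%. Every count of a list stands beside these shares. Known targets of the PPARs had a median of 1.01, and 9 of the 18 that qualified were over 2-fold higher in replicate 2, with 0 over 2-fold lower. Fabp3, a muscle fatty acid carrier, had 2499 CPM in replicate 2 and 883 in replicate 1, and Lpl, lipoprotein lipase, had 1055 and 439 CPM. Pdk4, which restrains pyruvate dehydrogenase, had 591 CPM in replicate 2 and 282 in replicate 1, and Cd36, a fatty acid transporter, had 143 and 57.8 CPM. The gene of the rate-limiting acyl carnitine step, Cpt1b, had 324 CPM in replicate 2 and 289 in replicate 1, a ratio of 1.12 (0.970 to 1.30).

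Targets of the ERRs and PGC-1 had a median of 0.45, with 25 of 26 higher in replicate 2, against 61.5% of all genes. 2 of the 26 were over 2-fold higher, a share near that of all genes. These were Acadvl, of very long chain fatty acid oxidation, at 741 CPM in replicate 2 and 351 in replicate 1, and Fndc5, at 219 and 84.9 CPM. The respiratory chain genes among them were closer, such as Atp5b at 4369 CPM in replicate 2 and 3130 in replicate 1 and Cox4i1 at 3497 and 2658 CPM. Partners of PGC-1 and the receptors had a median of -0.06, with 1 of 10 over 2-fold higher, Perm1, a muscle regulator induced by PGC-1 and ERR, at 187 CPM in replicate 2 and 82.2 in replicate 1. Other co-activators, co-repressors and PGC-1 modifiers had a median of 0.10 with 2 of 19 over 2-fold higher, one being Ncoa1, at 52.7 CPM in replicate 2 and 21.7 in replicate 1. Genes that copy and transcribe mitochondrial DNA, the group Tfam belongs to, had a median of 0.10 with 0 of 13 over 2-fold apart.

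**Figure D5:**
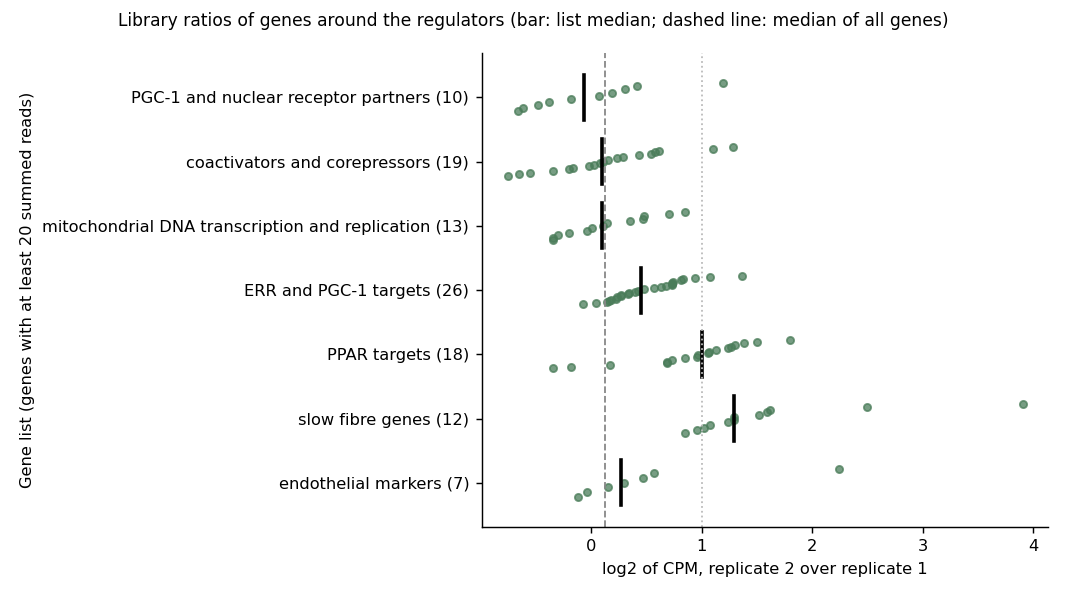
Log2 ratio of CPM, replicate 2 over replicate 1, of each gene (points) with at least 20 summed reads in 7 lists, with the number of genes in brackets. Black bars are list medians and the dashed line is the median of all genes; slow fibre genes and PPAR targets lie furthest to the right, with medians of 1.29 and 1.01.

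Slow fibre genes had the highest median log2 ratio of the 9 lists. All 12 were higher in replicate 2, 10 of them over 2-fold, with a median log2 ratio of 1.29, and their levels summed to 11760 CPM in replicate 2 and 4257 CPM in replicate 1. Myh7, the slow myosin heavy chain, had 2838 CPM in replicate 2 and 503 CPM in replicate 1. Their part in the ratios of Ppargc1a, Ppargc1b and Esrrg was not tested. Adipocyte markers summed to 80.5 CPM in replicate 2 and 63.2 in replicate 1, of which Fabp4 gave 73.4 and 45.2 CPM, and the other 7 summed to 7.13 CPM in replicate 2 and 18.1 in replicate 1. Cfd, one of these, had 2.85 CPM in replicate 2 and 11.7 in replicate 1. Endothelial markers summed to 173 CPM in replicate 2 and 134 in replicate 1, and macrophage markers to 36.4 and 41.5 CPM. The endothelial list had a median of 0.27 with 1 of 7 genes over 2-fold higher in replicate 2.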

How the data were processed

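Per the file headers and deposited notes, the authors aligned long reads to mm10, assigned them with TALON to GENCODE M21 transcripts or unannotated models, and deposited whole-number counts per model without normalisation. The sources used here name no aligner or filter. Annotated models carry the annotation's ends, so their start shows which first exon was read. Counts were summed per gene and divided by the reads of annotated genes (CPM). Intervals (95%: exact Poisson for levels, conditional binomial for ratios, Wilson for shares) and the floor of 3 counts cover counting error only. Log2 ratios used a prior count of 0.5, and starts were grouped within 100 nt. Members and 9 gene lists were chosen with earlier results of these data known. Named genes were the 10 members, up to 4 genes per list with the most reads and genes over 2-fold apart with at least 50 summed reads. Alternatives used TMM factors (edgeR 4.0.16, R 4.3.3), median-ratio factors, other minimums and read classes. Python 3.11.15 was used.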

Additional observations from a re-analysis of the deposited data

Results flagged for a closer look

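Antisense reads, which belong to no comparison above, exceeded the 3 counts that a count of 0 allows in both libraries over 4 of the 10 genes, against 7.01% of the 11565 genes with sense reads in both libraries. Gene length differs widely and was not matched, and whether the libraries kept strand is unknown, so the strand of these reads is that of the deposited models. Over Ppargc1a there were 9 antisense reads in replicate 2 and 6 in replicate 1, and over Ppargc1b 7 in replicate 2 and 4 in replicate 1. Over Ppard there were 7 in replicate 2 and 7 in replicate 1, more than its 3 and 5 sense reads. Over Nrip1 there were 8 in replicate 2 and 8 in replicate 1, beside 7 and 7 sense reads. Esrrg had 15 antisense reads in replicate 2 and 2 in replicate 1. No control sample gives a background for such reads.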

How the results depend on the processing

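Of 149 alternative values, 127 were labelled unchanged, by rules that differ between results. Levels, ratios and shares had to stay within their error, and counts within a set fold of the main count. List medians only had to stay on the same side of the median of all genes. With 1 library left out, a value stays within the error by construction, so those settings test nothing. The sign of a log2 ratio or list median changed in 15 of 118 alternatives. These include the 3 of Esrra and the sum given next, 6 of Esrrb, Nrip1 and Ppara, which have few reads, and 6 of list medians, among them the partners of PGC-1, at 0.19 with a minimum of 50 reads, and the mitochondrial DNA and co-activator lists, close to 0. Median-ratio and TMM scaling shifted every log2 ratio by -0.10 and -0.09. The log2 ratio of the summed reads, 1.11 with all reads, was 0.37 with annotated transcripts only, 0.64 with spliced reads only, 0.65 without Esrra and -0.27 without genomic reads, where the reads of Esrra are 46 and 202. The Esrra log2 ratio was -0.21 with annotated transcripts only and -2.46 without genomic reads. The summed level of 505 CPM became 99.7 with annotated transcripts, 163 with spliced reads and 175 without Esrra, and 319 to 691 CPM with 1 library left out. The share of reads in annotated transcripts, 21.8%, became 39.9% without genomic reads and 16.3 to 27.2% with 1 library left out, and the spliced share was 28.8 to 39.9%. The share of Ppargc1a reads at the leading start, over all its reads (13 of 26 and 3 of 6), was 50% in each library. It averaged 59.2% without genomic reads, 66.1% over reads with a first exon and 46.2% with a window of 20 nt. Members over 2-fold apart, 4 in all, numbered 2 at a minimum of 50 reads and 0 with annotated transcripts only, where 3 genes reached the minimum of 20 and Ppargc1a, Ppargc1b and Esrrg did not. Over all genes with annotated transcripts only, 6.61% were over 2-fold higher in replicate 2 and 1.48% lower. Without genomic reads the members over 2-fold apart numbered 5 of 6, with Rxra higher and Esrra lower in replicate 2. Over all genes in that setting, 6.98% were over 2-fold higher and 1.76% lower. The settings with spliced reads only, without Esrra and with a first exon only were chosen after seeing the data. No paired analysis was possible because the libraries form 1 group. Depth limits Ppard, Esrrb, Nrip1 and Ppara, with 15 summed reads or fewer, to presence and a level near the floor.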

Other observations

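Mir378a, a microRNA gene in an intron of Ppargc1b, had 1 read in replicate 2 and 4 in replicate 1. One spliced Esrra read in replicate 2, of 46, ran on into Prdx5, the next gene on that strand, and 0 of 35 did in replicate 1. Prdx5 itself had 188 reads in replicate 2 and 122 in replicate 1. Upstream Esrrg starts also gave 2-exon models that ended near base 187795536, with 2 and 2 reads from different starts in replicate 2 and 1 read in replicate 1.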
